A study of Mus musculus with 7 samples.

Results

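Proteasome genes were taken by name, as the protein-coding genes in the count table whose mouse symbol in GENCODE M21 starts with Psma, Psmb, Psmc, Psmd, Psme, Psmf or Psmg followed by a digit. Of 54 symbols with this pattern, 4 belonged to pseudogenes and were left out, which leaves 50 genes among 39017 rows of the table. The rule used no measured value. It also caught Psmc3ip, a meiotic recombination factor that is no proteasome subunit, and Psme2b, a copy of the activator gene Psme2. Of the 50 genes, 49 passed the filter on low counts, and Psma8, a core subunit known from testis, did not.

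The proteasome is the protease complex that degrades proteins tagged with ubiquitin in the cytosol and nucleus. Its 20S core is a barrel of alpha and beta subunits, and the beta subunits encoded by Psmb5, Psmb6 and Psmb7 carry the active sites inside it. The 19S cap binds ubiquitin chains, removes them, unfolds the substrate and feeds it into the core, and 11S or PA200 activators can bind the core in place of a cap. In cells exposed to interferon and in immune cells, the beta subunits Psmb8, Psmb9 and Psmb10 replace the constitutive catalytic subunits to form the immunoproteasome, which shapes peptides for antigen presentation. In neurons proteasomes also act at synapses, where they turn over synaptic proteins.

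Bound libraries (3, titled GAD_ctrl) hold hippocampal RNA pulled down with EGFP-tagged ribosomal protein L10 from cells in which Cre driven by Gad2 had acted. Unbound libraries (4) hold hippocampal RNA that stayed out of the pull-down, and their titles fall into the series UBS (replicates 1 and 2) and UBGS (replicates 3 and 4), which the labels do not explain. Mice carried the Gad2 Cre and L10-EGFP alleles, 2 hippocampi were pooled for each pull-down sample, and age is not given. The treatment label says only bound or unbound. Because Cre is driven by Gad2, the tagged ribosomes come from GABAergic neurons and from any other cell in which that Cre had acted at some time. The labels do not say whether bound and unbound libraries come from the same tissue.

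Library totals ranged from 38690380 to 51953811 counts. Mitochondria-encoded genes took 0.0867% to 0.123% of counts in bound and 28.5% to 32.9% in unbound libraries. Levels are given as CPM, the counts of a gene scaled by the TMM-adjusted size of its library. Fold changes on the log2 scale come from edgeR with their standard error (SE), positive where bound libraries were higher, and a gene is said to have risen or fallen when its Benjamini-Hochberg adjusted p, taken over all genes tested, was under 0.05. The labelled cell type had its markers, since all 10 GABAergic neuron genes rose and all 10 excitatory neuron genes fell. Markers of other cells moved as well: 17 of 18 microglia genes rose, while 12 of 14 endothelial and mural, 9 of 10 astrocyte and 10 of 10 oligodendrocyte genes fell. The summed microglia level ran from 338 to 933.6 CPM in bound and from 105.5 to 165 CPM in unbound libraries, and bound replicate 2 held the highest level of 17 of the 18 genes. Over all 19563 genes tested, 61.7% differed between the groups, 31.0% higher and 30.7% lower in bound libraries, so passing the test was the common outcome. In bulk RNA, fewer cells of a type and less RNA per cell cannot be told apart. The groups also differ in the kind of RNA, that held by tagged ribosomes against that left out of the pull-down. Cell type and ribosome association therefore cannot be told apart in any difference between bound and unbound libraries.

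Most proteasome genes were higher in bound libraries. Of the 49 tested, 34 rose and 2 fell, where 31.0% of all genes rose and 30.7% fell. The median log2 fold change of the 49 was 0.54, against a median of -0.01 over all genes tested. Every bound library lay above every unbound library for 32 of the 49 genes, where 31.7% of all genes did so, and below every unbound library for 3, where 31.6% of all genes did so. Summed over the 50 genes, the level was 2333, 2292 and 2420 CPM in bound replicates 1 to 3, against 1595, 1573, 1659 and 1672 CPM in unbound replicates 1 to 4. The rise was not even across the complex, and the parts of the proteasome are taken in turn.

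**Figure D1:**
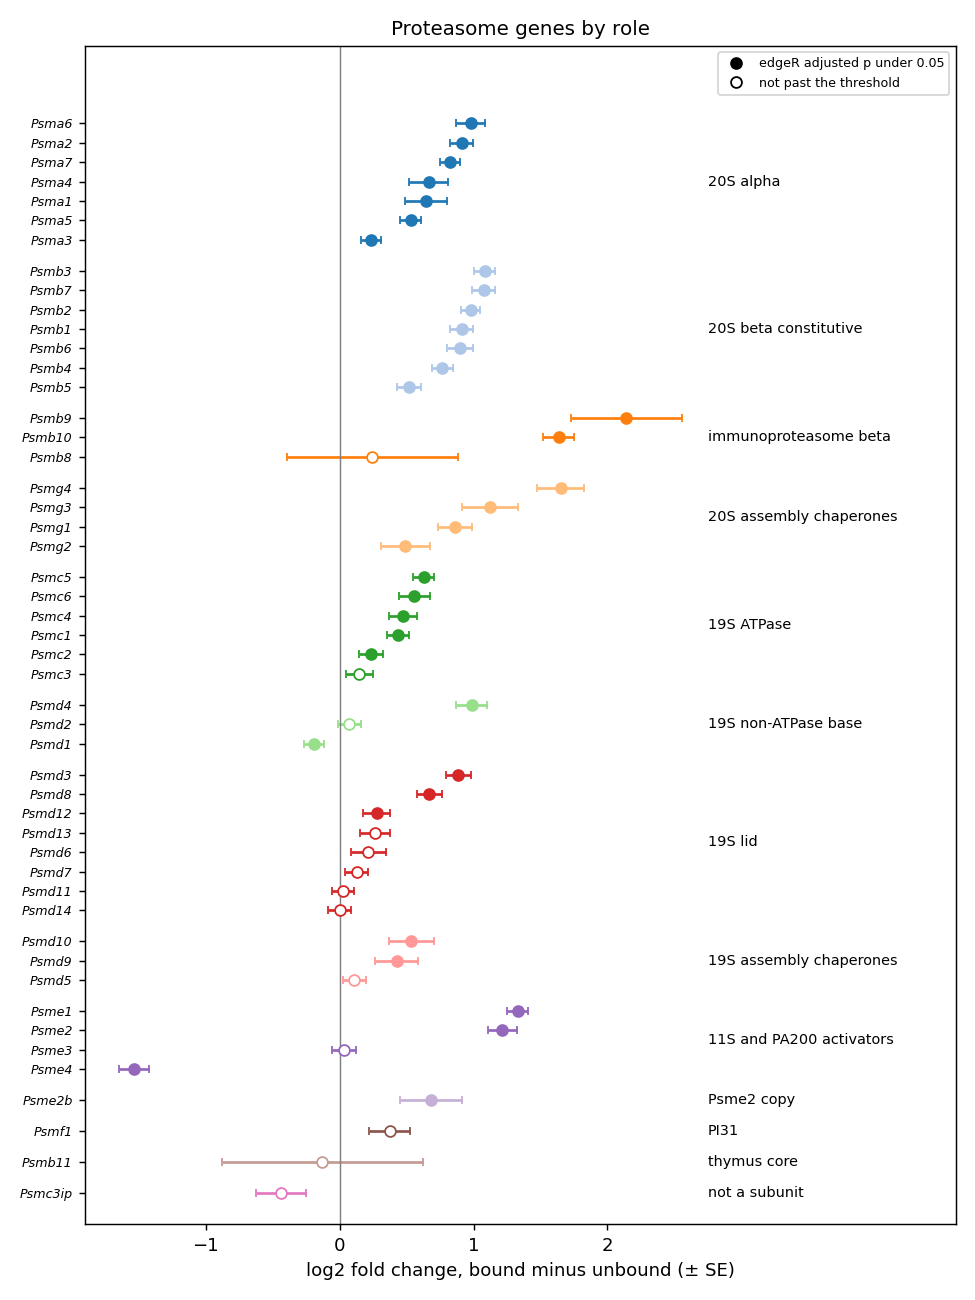
The horizontal axis gives the log2 fold change, bound minus unbound, of the 49 proteasome genes tested, with bars of 1 SE, grouped by role down the page. Filled points passed the threshold: all 20S core genes lie right of 0, the 19S cap spreads from Psmd4 at 0.99 to Psmd1 at -0.19, and Psme4 stands apart at -1.54.

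The 20S core rose as a whole. All 14 constitutive core genes, 7 alpha and 7 beta, were higher in bound libraries, with no overlap between the groups for any of them. The median was 0.86 and the range 0.24 to 1.08. Over all genes tested, 31.0% were called higher and 31.7% had every bound library above every unbound one. With the trend of counts on exon length taken out of each library, 12 of the 14 stayed higher, where 37.8% of all genes were. Beta genes had a median of 0.91 and alpha genes one of 0.67. Psmb3, a structural beta subunit, was the core gene with the largest rise, at 68.1, 62.6 and 69.4 CPM in bound replicates 1 to 3 and 31.2, 33.2, 31.2 and 30.1 CPM in unbound replicates 1 to 4. All bound libraries held about the same level, and so did all unbound libraries (log2 1.08, SE 0.08, edgeR adjusted p = 5.4e-07). Psma3, an alpha subunit of the outer ring, had the smallest rise, at 69.2, 62 and 66.6 CPM in bound libraries, against 57.1, 52.1, 56.1 and 58.7 CPM in unbound ones. Its groups came close without overlapping (log2 0.24, SE 0.08, edgeR adjusted p = 0.019), and the call was lost without bound replicate 1 (0.20, adjusted p = 0.065) and with the UBS libraries alone. Psma6, another alpha subunit, rose the most among the alpha genes, by 1.97-fold, with 72, 67.7 and 64.1 CPM in bound libraries, against 27.7, 35.3, 36.1 and 38.8 CPM in unbound ones (log2 0.98, SE 0.11, edgeR adjusted p = 1.9e-05).

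The catalytic genes of the core rose by different amounts. Psmb7, which carries the trypsin-like site, had 130.1, 135.6 and 144 CPM in bound libraries, against 58.9, 60, 68.2 and 71.8 CPM in unbound ones. That is 2.11-fold, with the bound values far above the unbound ones (log2 1.08, SE 0.09, edgeR adjusted p = 1.1e-06). Psmb6, which carries the caspase-like site, had 56.8, 45.2 and 56.1 CPM in bound libraries, against 27.7, 27.1, 29.3 and 28.9 CPM in unbound ones. The lowest bound library, replicate 2, was still 1.54 times the highest unbound one (log2 0.90, SE 0.10). Psmb5, which carries the chymotrypsin-like site and is the target of proteasome inhibitor drugs, had 73.2, 77.5 and 88.6 CPM in bound libraries, against 51.5, 52.6, 60.8 and 57.8 CPM in unbound ones. Of its exon length 12.1% overlaps the miRNA gene Mir686, and 11.8% of that of Psmb7 overlaps Nek6 on the opposite strand. The rise of Psmb5 was the smallest of the beta genes (log2 0.52, SE 0.09, edgeR adjusted p = 0.00048). Psmb5 has a short transcript of 899 nucleotides, and with the trend of counts on exon length taken out of each library its log2 fold change was 0.02 and no longer passed (edgeR adjusted p = 0.86).

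The transcription factor encoded by Nfe2l1 raises many proteasome genes together when proteasome activity falls, through antioxidant response elements near the start sites. Promoter sequence from RefSeq (GRCm38.p6) was matched by symbol for 42 of the 50 genes, all but Psma8, Psmb1, Psmb2, Psmb7, Psmc3, Psmd3, Psmd7 and Psmg2, and 45 windows of 250 bases before a start were searched on both strands for the core of that element, TGACNNNGC, for the NF-Y box CCAAT and for an interferon response core, written GAAA, then any 2 bases, then GAAA. No match overlapped another in the windows shown. TGACNNNGC was found in 5 of the 45 windows (11.1%), among them 2 of 12 core windows and 2 of 15 cap windows, against 10.2% of 32851 windows over all genes. CCAAT was found in 15 of the 45 windows (33.3%), with 6 of the 12 core windows and 4 of the 15 cap windows, against 33.8% of all windows. The interferon core was in 3 of the 45 windows (6.67%) and in none of the 3 immunoproteasome windows, against 2.98% of all windows. A match is only a match of letters, and its absence says nothing of the factor. The windows of both catalytic genes with TGACNNNGC, of Psmb3 with the largest core rise, of the immunoproteasome gene Psmb9 and of Psme4, which fell, are shown because these genes span the range of responses. They run 5′ to 3′ up to the base before the start, with motif matches in capitals. Psmb5 (minus strand, chr14:54617996-54618245) has TGACNNNGC from position -47 relative to the start, and Psmb6 (plus strand, chr11:70525107-70525356) has it from position -9. Psmb3 (plus strand, chr11:97703184-97703433) has CCAAT from positions -85 and -43 and the interferon core on the opposite strand from -163. Psmb9 (minus strand, chr17:34187331-34187580) has CCAAT on the opposite strand from position -8. Psme4 (plus strand, chr11:30771525-30771774) has none of the 3. All starts here are those of RefSeq, and GENCODE M21 places some of them elsewhere. By GENCODE M21 the Psmb9 window lies wholly inside the gene, whose 5′ end is at 34187764. The windows of Psmb3, Psmb5 and Psme4 run partly into their genes.
Psmb5: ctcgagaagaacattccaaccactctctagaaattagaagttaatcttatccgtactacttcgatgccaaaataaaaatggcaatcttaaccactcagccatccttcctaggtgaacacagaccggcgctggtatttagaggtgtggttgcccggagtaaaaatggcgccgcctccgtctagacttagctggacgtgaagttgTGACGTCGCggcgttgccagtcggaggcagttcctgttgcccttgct
Psmb6: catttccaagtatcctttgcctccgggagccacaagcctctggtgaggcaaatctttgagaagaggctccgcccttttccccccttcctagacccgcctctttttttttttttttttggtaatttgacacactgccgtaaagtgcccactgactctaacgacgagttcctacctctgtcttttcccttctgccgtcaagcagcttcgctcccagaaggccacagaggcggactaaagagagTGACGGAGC
Psmb3: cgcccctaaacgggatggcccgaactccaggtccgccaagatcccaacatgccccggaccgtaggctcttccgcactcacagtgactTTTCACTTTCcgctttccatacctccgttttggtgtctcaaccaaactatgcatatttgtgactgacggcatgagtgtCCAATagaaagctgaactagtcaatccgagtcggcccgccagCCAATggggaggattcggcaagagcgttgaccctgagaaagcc
Psmb9: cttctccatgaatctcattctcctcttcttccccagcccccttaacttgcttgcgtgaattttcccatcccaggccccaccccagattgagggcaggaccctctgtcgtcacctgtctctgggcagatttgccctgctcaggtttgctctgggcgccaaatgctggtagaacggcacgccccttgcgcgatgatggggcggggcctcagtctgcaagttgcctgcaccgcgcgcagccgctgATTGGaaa
Psme4: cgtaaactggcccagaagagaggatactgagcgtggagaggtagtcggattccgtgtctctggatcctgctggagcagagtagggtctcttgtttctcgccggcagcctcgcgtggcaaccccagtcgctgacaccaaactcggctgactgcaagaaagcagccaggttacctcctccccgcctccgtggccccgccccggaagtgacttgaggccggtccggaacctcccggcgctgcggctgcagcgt

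Assembly chaperones of the core rose with it. Psmg1 to Psmg4 encode the PAC proteins, which pair up to put the alpha ring together, and all 4 rose (median log2 0.99). Over all genes tested, 31.0% rose. With the length trend taken out, 3 of the 4 rose, where 37.8% of all genes did. Psmg4 had 7.96, 8.26 and 10.7 CPM in bound libraries, against 2.64, 2.66, 3.12 and 2.96 CPM in unbound ones. It rose 3.14-fold (log2 1.65, SE 0.18, edgeR adjusted p = 1.1e-05), and its lowest bound library was 2.55 times its highest unbound one. Psmg2 was the least changed, at 8.05, 9.46 and 8.44 CPM in bound libraries, against 8.20, 5.70, 5.07 and 5.68 CPM in unbound ones. Unbound replicate 1 lay inside the bound range, and the call (log2 0.49, SE 0.18, edgeR adjusted p = 0.037) was lost in 8 of 15 other settings. Pomp, the chaperone that completes the beta ring and is no gene of the name rule, stood at 150.2 ± 4.34 CPM in bound libraries, against 66.6 ± 5.76 CPM in unbound ones and rose 2.26-fold (log2 1.17, edgeR adjusted p = 3.3e-07); it was singled out after its values were seen.

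The 19S cap moved less, and unevenly. Of its 17 genes in the name rule, 9 rose, 1 fell and 7 did not pass, with a median of 0.26. Over all genes tested, 31.0% rose and 30.7% fell. With library totals in place of TMM, where the median of all genes moved to 0.43, all 17 cap genes and all 14 core genes were past the threshold as higher. In that scaling 45 of the 49 proteasome genes were higher and 1 was lower, where 47.5% of all genes were higher and 18.9% lower, and the cap median lay 0.28 above the median of all genes (0.27 with TMM). Of the 6 ATPases that unfold substrates at the base of the cap, 5 rose, at modest sizes (median 0.45). Psmc5 rose the most among them, at 100.6, 106.2 and 121.8 CPM in bound libraries, against 76.1, 69.7, 68.4 and 69.8 CPM in unbound ones. Its groups were apart by a margin of 1.32 between the lowest bound and highest unbound library (log2 0.63, SE 0.08, edgeR adjusted p = 5.3e-05). Psmc3 had the smallest difference, with 29.2, 32.5 and 33.4 CPM in bound libraries, against 26.3, 31.6, 30.3 and 26.3 CPM in unbound ones. The groups overlapped and it did not pass (log2 0.15, SE 0.10, edgeR adjusted p = 0.23). Psmc2, with 52, 46.4 and 51.4 CPM in bound libraries, against 40.8, 38, 46.3 and 44.8 CPM in unbound ones, passed with its groups almost touching (log2 0.23, SE 0.09, edgeR adjusted p = 0.046) but lost the call in 8 of 15 other settings.

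The other base subunits went different ways. Psmd4, a receptor for ubiquitin chains, had 46.8, 36.8 and 43 CPM in bound libraries, against 19.7, 19.6, 21.8 and 24.1 CPM in unbound ones. It nearly doubled in level without any overlap between the groups (log2 0.99, SE 0.11, edgeR adjusted p = 2.0e-05), the largest rise among the 17 cap genes of the name rule. The scaffold genes Psmd1 and Psmd2, which hold the base and dock ubiquitin-like domains, did not follow it. Psmd2 differed by 0.07 (SE 0.09, edgeR adjusted p = 0.50). Psmd1 had 70.7, 68 and 70.6 CPM in bound libraries, against 73, 77.5, 81.5 and 86.1 CPM in unbound ones. Every bound value lay just below every unbound value, and Psmd1 fell (log2 -0.19, SE 0.08, edgeR adjusted p = 0.047). With library totals in place of TMM its sign turned (0.24), but the median of all genes moved to 0.43, so Psmd1 stayed below that median. With the length trend taken out it turned to 0.23, near the median of 0.17 over all genes. The call was lost in 9 further settings.

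In the lid, which removes ubiquitin chains before degradation, 3 of the 8 genes with a Psm symbol rose, none fell and 5 did not pass (median 0.24). Over all genes tested, 31.0% rose and 30.7% fell, so 3 of 8 was near the share that rose. With the length trend taken out, 6 of the 8 rose, where 37.8% of all genes did. The small lid subunit Sem1 lies outside the name rule and is given with the partner genes. Psmd3, a scaffold of the lid, had 56.4, 66.3 and 56.9 CPM in bound libraries, against 31, 34.1, 34.4 and 29.9 CPM in unbound ones. The groups were far apart (1.85-fold, log2 0.89, SE 0.09, edgeR adjusted p = 9.7e-06). Psmd8 also rose (1.59-fold, log2 0.67), and Psmd12 less (log2 0.28, edgeR adjusted p = 0.032), a call lost without bound replicate 1 or 3 or unbound replicate 2 and with the UBGS libraries alone (adjusted p = 0.13, 0.056, 0.052 and 0.13). Psmd14, the deubiquitinase of the lid, had the same mean of 34.3 CPM in both groups, at 36.5, 31.9 and 34.5 CPM in bound libraries, against 33.1, 35, 35.1 and 34 CPM in unbound ones. Its bound range enclosed the unbound one (log2 0.00, SE 0.08). Of the 3 chaperones that assemble the base, Psmd10 and Psmd9 rose (log2 0.54 and 0.43, SE 0.17 and 0.16), with calls lost in 4 and 7 of 15 other settings. Psmd10 had 12.9, 15.4 and 9.30 CPM in bound libraries, against 8.34, 8.23, 8.86 and 9.16 CPM in unbound ones, and bound replicate 3 lay just above the unbound range. Psmd5 did not pass (log2 0.11, SE 0.09), with 38.3, 36.3 and 41.4 CPM in bound libraries, against 38.1, 36.3, 34.3 and 34.7 CPM in unbound ones. Of the exon length of Psmd9, 25.5% overlaps a gene on the opposite strand, so its counts are uncertain.

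The balance of core to cap transcripts differed between the groups. The 14 core genes summed to 1063, 1031 and 1065 CPM in bound libraries, against 558.3, 581, 630.7 and 643.7 CPM in unbound ones, and the 17 cap genes to 878.3, 848 and 933.4 CPM in bound libraries, against 710.3, 695.9, 715.3 and 718.3 CPM in unbound ones. The ratio of the sums was 1.21, 1.22 and 1.14 in bound and 0.786, 0.835, 0.882 and 0.896 in unbound libraries. It was above 1 in every bound library and below 1 in every unbound one, and being a ratio within a library it does not depend on how libraries are scaled. No test was run on these sums, since the genes were chosen with earlier results of these data known. The core median exceeded the cap median by 0.60 on the log2 scale, by 0.48 without bound replicate 2 and by 0.36 with the length trend taken out.

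**Figure D2:**
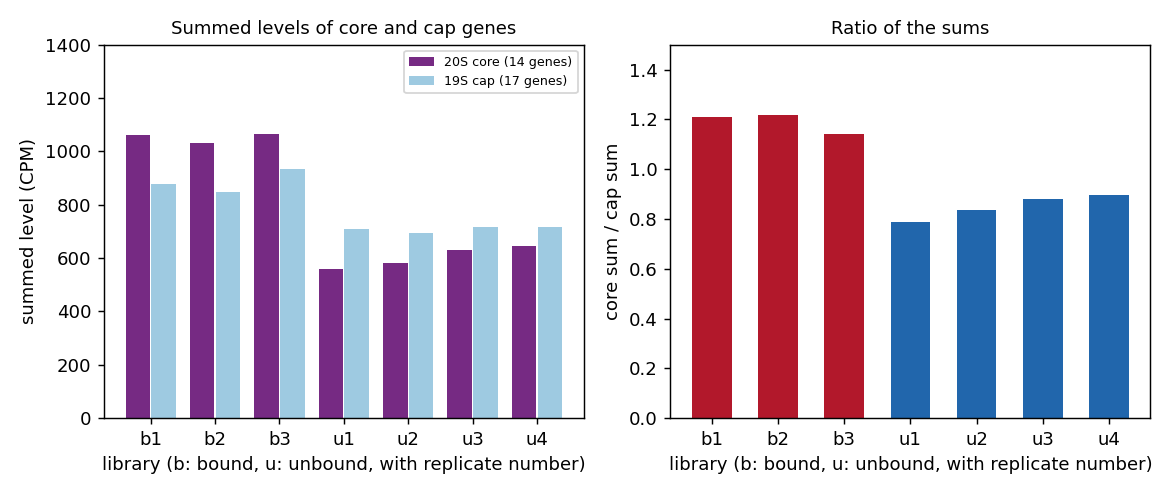
The left bars give, for each library, the summed level in CPM of the 14 core and 17 cap genes, and the right bars give the core sum divided by the cap sum (b, bound; u, unbound). The ratio runs from 1.14 to 1.22 in the 3 bound libraries and from 0.786 to 0.896 in the 4 unbound libraries.

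Exon length moved with fold change over all genes. The median over protein-coding genes was lower the longer their merged exons, at 0.59 for 1703 genes from 1000 to 2000 nucleotides, 0.17 for 4599 genes from 2000 to 4000 and -0.15 for 5689 genes from 4000 to 8000. Proteasome genes had medians of 0.77, 0.60 and 0.17 in these classes (13, 22 and 10 genes). In them 12, 15 and 4 proteasome genes rose, where 51.3%, 37.2% and 25.4% of all protein-coding genes did. Under 1000 nucleotides the 3 proteasome genes all rose, where 55.4% did, but their median of 0.68 was below the 0.92 of the class. The 1 gene from 8000 nucleotides up, Psme4 at -1.54, fell, where 57.7% of the class fell and its median was -0.49. Core genes had a median exon length of 2335 and cap genes one of 2820 nucleotides, and across the 31 core and cap genes, which share all libraries, fold change and length had a Spearman rho of -0.27. It was 0.02 within the 14 core genes and -0.31 within the 17 cap genes. With the length trend taken out of each library, the median of all genes moved to 0.17, the core median to 0.74 and the cap median to 0.39, which are 0.57 and 0.21 above the median of all genes (0.87 and 0.27 above it before). In that fit 12 core genes rose, all but Psma5 and Psmb5, and 15 cap genes rose, where 37.8% of all genes did. Of the 49 genes, 37 rose and 2, Psme4 and Psmc3ip, fell, where 23.6% of all genes fell. Length classes and the length trend both use merged exons, which can be far longer than any transcript. For Psmd1 they come to 7265 nucleotides, against 3112 for its longest transcript. Values for such genes with the length trend taken out are uncertain for that reason.

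**Figure D3:**
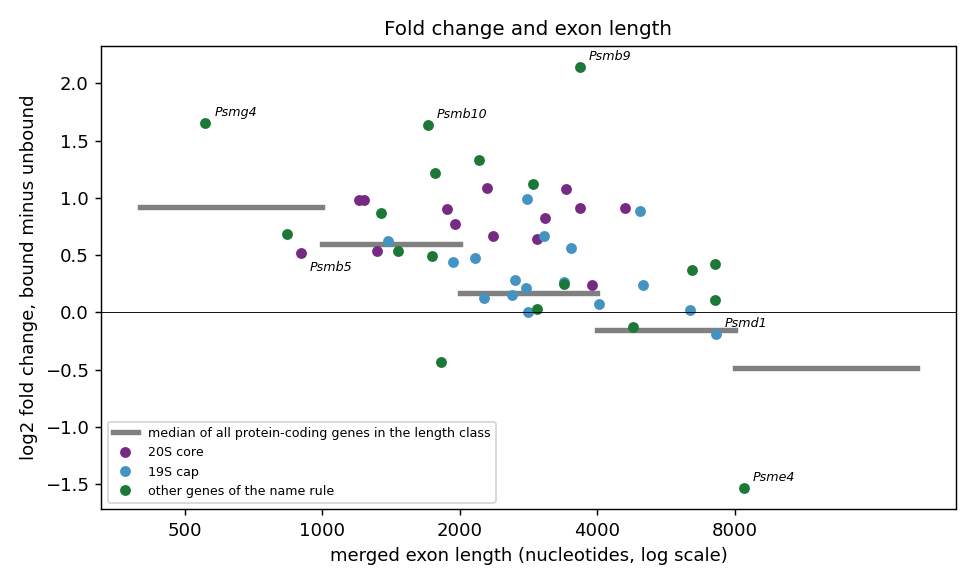
The horizontal axis gives merged exon length on a log scale and the vertical axis the log2 fold change, bound minus unbound, for the 49 proteasome genes tested. Grey lines mark the median of all protein-coding genes in each length class, from 0.92 under 1000 nucleotides to -0.49 from 8000 up, and most core genes lie above the line of their class.

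The immunoproteasome genes stood apart from each other in level. Psmb10, the counterpart of Psmb7, had 31.3, 34.6 and 41.1 CPM in bound libraries, against 11.6, 11.9, 12 and 10.4 CPM in unbound ones. Its lowest bound library was 2.61 times its highest unbound one (3.11-fold, log2 1.64, SE 0.12, edgeR adjusted p = 4.7e-07). Psmb9, the counterpart of Psmb6, had 1.39, 3.27 and 2.47 CPM in bound libraries, against 0.852, 0.538, 0.376 and 0.395 CPM in unbound ones. It was scarce in both groups, with the groups apart (4.41-fold, log2 2.14, SE 0.41, edgeR adjusted p = 0.00097). Psmb8, the counterpart of Psmb5, had 0.616, 1.36 and 0.454 CPM in bound libraries, against 0.147, 1.31, 0.681 and 0.593 CPM in unbound ones. The groups overlapped almost fully and Psmb8 did not pass (log2 0.24, SE 0.64, edgeR adjusted p = 0.76). Psmb11, the beta subunit known from thymic epithelium, was measured at 0.0681 to 0.32 CPM in bound and 0.0588 to 0.329 CPM in unbound libraries, and Psma8 at 0.0685 to 0.576 CPM in bound and 0 to 0.117 CPM in unbound libraries.

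**Figure D4:**
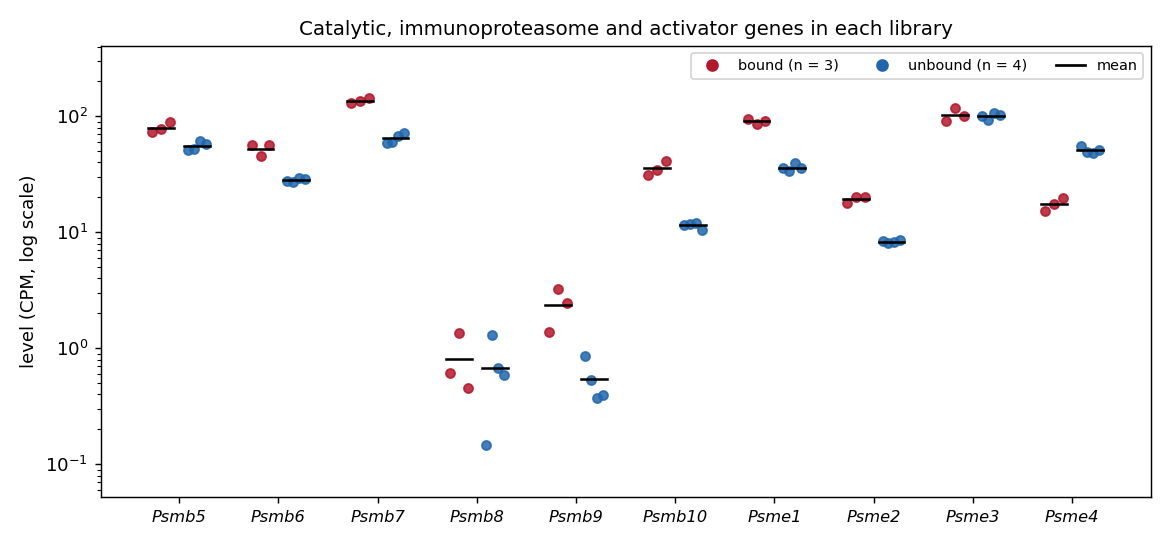
Each point is the level of 1 library in CPM on a log axis, with black lines at the group means, for the constitutive catalytic genes Psmb5, Psmb6 and Psmb7, their immunoproteasome counterparts Psmb8, Psmb9 and Psmb10, and the activator genes Psme1 to Psme4. Psmb10 sits within 1 order of magnitude of Psmb7 in both groups, whereas Psmb8 and Psmb9 stay at or below 3.27 CPM in every library.

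Per kilobase of exon, Psmb10 reached 48.3%, 51.2% and 57.3% of the level of Psmb7 in bound and 39.5%, 39.8%, 35.4% and 29% in unbound libraries. Each bound library had the higher share. Psmb9 reached 1.25% to 3.69% of Psmb6 in bound and 0.656% to 1.57% in unbound libraries, and Psmb8 0.136% to 0.467% of Psmb5 in bound and 0.0759% to 0.662% in unbound libraries. These 2 shares overlapped between the groups. Exons of Psmb8 and Psmb9 overlap genes on the opposite strand by 14.7% and 5.79% of their length, in the case of Psmb9 the transporter gene Tap1, and the strand setting of the counts is not given in the sources used here.

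Immune cells of the brain express these genes, and microglia markers were high in the bound libraries. Psmb9 was highest in bound replicate 2, which held the most microglia RNA (933.6 CPM over the 18 genes, against 394 and 338 CPM in bound replicates 1 and 3), and without that library it stood at log2 1.84 (edgeR adjusted p = 0.0053). Psmb10 was highest in bound replicate 3, which held the least microglia RNA of the bound libraries, and stood at 1.66 without replicate 2. None of the 18 microglia genes was at 0 in any bound library, and the part of these cells in the levels of Psmb9 and Psmb10 was not tested.

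**Figure D5:**
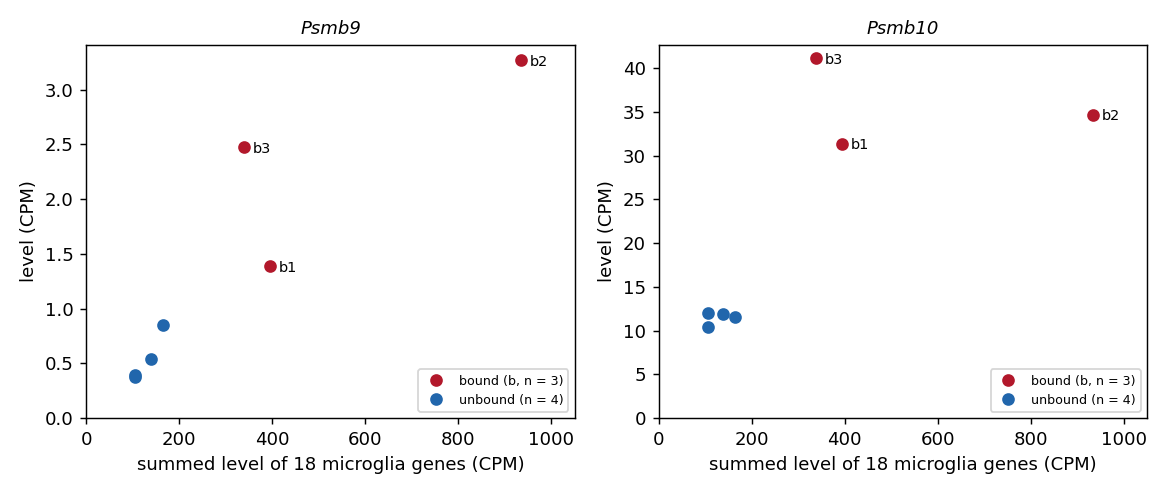
The horizontal axis gives the summed level of 18 microglia genes and the vertical axis the level of Psmb9 (left) or Psmb10 (right), both in CPM, with 1 point per library (b1 to b3, bound replicates). Psmb9 was highest in bound replicate 2, where the microglia sum was 933.6 CPM, and Psmb10 was highest in bound replicate 3, where it was 338 CPM.

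The activators split. Psme1 and Psme2 encode the subunits of the 11S activator PA28 that is induced by interferon and works with the immunoproteasome, and both rose. Psme1 had 95.7, 86.2 and 90.3 CPM in bound libraries, against 35.6, 33.9, 39.2 and 35.7 CPM in unbound ones. The lowest bound library was 2.20 times the highest unbound one (2.51-fold, log2 1.33, SE 0.08, edgeR adjusted p = 1.2e-07). Psme2 had 17.8, 20 and 20.3 CPM in bound libraries, against 8.40, 8.06, 8.29 and 8.57 CPM in unbound ones (2.32-fold, log2 1.22, SE 0.11). Both were about as far apart without bound replicate 2, at 1.37 and 1.20. Psme2b, whose counts may mix with those of Psme2, rose less (log2 0.68, edgeR adjusted p = 0.025), a call lost in 6 of 15 other settings.

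Psme3, which encodes the nuclear PA28 gamma activator, had 91.1, 117.5 and 101.5 CPM in bound libraries, against 100.7, 93.4, 106.8 and 103.4 CPM in unbound ones. The groups overlapped and the gene did not pass (log2 0.03, SE 0.09, edgeR adjusted p = 0.78). Psme4, which encodes the PA200 activator, known for degradation of acetylated histones, had 15.2, 17.7 and 19.8 CPM in bound libraries, against 55.1, 49.3, 48.3 and 50.8 CPM in unbound ones. All bound libraries were far below all unbound ones (2.90-fold lower, log2 -1.54, SE 0.11, edgeR adjusted p = 4.7e-07). Psme4 has the longest exons of the 50 genes (8382 nucleotides), and with the length trend taken out it still fell (log2 -1.06, edgeR adjusted p = 9.3e-06). Psmf1, which encodes the proteasome regulator PI31, had 27.9, 22.3 and 28.6 CPM in bound libraries, against 26.2, 17.7, 17.7 and 19.6 CPM in unbound ones. Unbound replicate 1 lay inside the bound range and the gene did not pass (log2 0.37, SE 0.15, edgeR adjusted p = 0.053), and it passed in 7 of 15 other settings. Psmc3ip had 2.74, 2.91 and 2.95 CPM in bound libraries, against 4.08, 3.55, 3.95 and 3.95 CPM in unbound ones. All bound values lay below all unbound values, and it did not pass (log2 -0.44, SE 0.19, edgeR adjusted p = 0.065).

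Of 33 partner genes tested, 17 rose and 7 fell (median 0.35), where 31.0% of all genes rose and 30.7% fell. With the length trend taken out, 21 rose and 3 fell (median 0.67, against 0.17 over all genes). The list held subunits without a Psm symbol, ubiquitin genes, shuttle factors and regulators. Sem1, a small lid subunit, rose the most, at 44.5, 40.9 and 45.4 CPM in bound libraries, against 10.1, 15.6, 13.3 and 13.9 CPM in unbound ones. The groups were well apart (3.29-fold, log2 1.72, SE 0.13, edgeR adjusted p = 9.3e-07). Ubb, a polyubiquitin gene, rose 2.45-fold (log2 1.29, SE 0.09). Nfe2l2, which encodes the stress factor NRF2, fell the most, with 5.07, 5.86 and 4.29 CPM in bound libraries, against 14.7, 10.5, 11.5 and 10.3 CPM in unbound ones (log2 -1.21, SE 0.18, edgeR adjusted p = 0.00013). Ddi2, the protease that activates the factor encoded by Nfe2l1, fell as well (log2 -0.86, SE 0.08, edgeR adjusted p = 3.5e-06), at -0.32 with the length trend taken out. Nfe2l1 itself, named after its values were seen, had 263.4, 266.2 and 269.6 CPM in bound libraries, against 233.7, 202.4, 197.8 and 194.8 CPM in unbound ones. It rose without overlap between the groups (log2 0.36, SE 0.07, edgeR adjusted p = 0.0014).

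Of 10 antigen presentation genes, 2 rose and 3 fell (median -0.37), where 31.0% of all genes rose and 30.7% fell. Both counts were near these shares. B2m, the light chain of class I molecules, had 91.5, 137.4 and 74.2 CPM in bound libraries, against 39.9, 42.4, 31.9 and 33.5 CPM in unbound ones. It was highest in bound replicate 2, as the microglia genes were (log2 1.45, SE 0.18, edgeR adjusted p = 4.0e-05). Tapbp, which loads peptides onto class I molecules, had 11.3, 16.7 and 11.8 CPM in bound libraries, against 10.8, 10.4, 5.92 and 6.57 CPM in unbound ones. Tapbp rose (log2 0.66, SE 0.23, edgeR adjusted p = 0.030). It too was highest in bound replicate 2, and the UBS libraries came close to bound replicates 1 and 3. Irf1, an interferon-linked transcription factor gene, had 0.462, 0.977 and 0.544 CPM in bound libraries, against 3.73, 3.41, 2.54 and 2.25 CPM in unbound ones. All bound values lay below all unbound values, and Irf1 fell (log2 -2.16, SE 0.36, edgeR adjusted p = 0.00032).

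Levels also differed widely within each subcomplex, whose subunits are built in at equal numbers. Per kilobase of exon, core genes ran from 11.1 ± 0.976 (Psma1) to 88.7 ± 8.86 CPM per kilobase (Psmb5) in bound libraries and from 7.08 ± 1.47 (Psma1) to 61.9 ± 4.88 CPM per kilobase (Psmb5) in unbound libraries. Their highest level was 8.02 times the lowest in bound and 8.74 times in unbound libraries. Cap genes ran from Psmd13 at 5.07 to Psmc5 at 78.6 CPM per kilobase in bound libraries, and from Psmd13 at 4.22 to Psmc5 at 50.9 CPM per kilobase in unbound ones. The SD of the log2 level among genes was 0.90 for the core and 0.89 for the cap in bound, and 0.88 and 0.85 in unbound libraries, so the spread among subunits was about the same in both groups. Merged exons can overstate the length that is transcribed. They come to 2952 nucleotides for Psma1 and 1204 for Psmb2, against 1201 and 859 for the longest transcripts, whereas both lengths are 899 for Psmb5. Which genes are lowest and highest, and the fold ranges given here, therefore depend on the length used.

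Between the unbound series no proteasome gene passed the test. The count was 0 of 49 (edgeR, adjusted p under 0.05), where 0.229% of all genes did, and 6 had an unadjusted p under 0.05, where 16.8% of all genes did. The median log2 difference, UBS minus UBGS, was -0.07 over the 49 genes, -0.15 over the core and -0.02 over the cap. Psma4, an alpha subunit, had 22.2 and 25.2 CPM in UBS libraries, against 33.9 and 33.2 CPM in UBGS ones, and was the gene that DESeq2 called (log2 -0.50, DESeq2 adjusted p = 0.024). It was chosen after its values were seen, and its bound values, 46.3, 41.6 and 48.5 CPM, lay above both series. Without unbound replicate 1 or 2, where the lone UBS library is assumed to vary like the UBGS pair, 11 and 17 proteasome genes passed, among 4684 and 7389 over all genes.

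On mm10, Psmb8 (ENSMUSG00000024338) and Psmb9 (ENSMUSG00000096727) lie near each other on chromosome 17, from 34197721 to 34201454 and from 34181987 to 34187764, on opposite strands. Psme1 (ENSMUSG00000022216) and Psme2 (ENSMUSG00000079197) are likewise neighbours on chromosome 14, from 55578123 to 55581529 and from 55587441 to 55591113. Psmb10 (ENSMUSG00000031897) lies on chromosome 8 from 105935735 to 105938444, Psme4 (ENSMUSG00000040850) on chromosome 11 from 30771726 to 30880361 and Psmg4 (ENSMUSG00000071451) on chromosome 13 from 34162964 to 34178173. Values are for all exons of each gene.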

How the data were processed

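The authors deposited 1 table of raw read counts by gene over 7 hippocampal libraries. STAR 2.5.3a, HTSeq and the mm10 build are named per the submitters' processing notes; the annotation release, strand setting and treatment of multi-mapped reads were not given by these sources. Genes were named and their merged exons measured from GENCODE M21 (GRCm38), which named 37693 of 39017 rows. Counts were analysed with edgeR 4.0.16 in R 4.3.3 (filterByExpr by group, TMM, glmQLFit with robust estimation, glmQLFTest, Benjamini-Hochberg over all genes tested, threshold 0.05), and with DESeq2 1.42.0 as an alternative. Each SE is the log2 fold change over the root of F. The fits were tested on simulated data. The length trend was a spline with 5 degrees of freedom, fitted per library and entered as an offset. Groups come from the treatment labels, with replicates numbered in accession order. The labels do not say that libraries came from separate animals, so p-values rest on library-to-library spread alone, which may be technical. Within a group, any pair of libraries varied 5.57 to 46.3 times as much as counting error gives (genes with at least 20 counts). The lowest value was that of unbound replicates 3 and 4, the UBGS libraries, and the next lowest pair stood at 25.0. These UBGS libraries were thus far more alike than any other pair. No library repeated another, and that spread, not counting error, limits precision. Bound replicates 1 to 3 had totals of 47801886, 51953811 and 38690380, and unbound replicates 1 to 4 had 40465007, 47020568, 47984798 and 46143946. The genes and lists were chosen with earlier results of these data known. Genes named with values per library are the catalytic, immunoproteasome and activator genes, the largest and smallest fold change of each role, and the 4 largest and 4 smallest among all that passed; of the partner and antigen presentation lists, the 2 largest and 2 smallest that passed. Of the partner list, 1 gene had no row and was not analysed here. The values of 1 further gene that this rule names are not reported here.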

Additional observations from a re-analysis of the deposited data

Results flagged for a closer look

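In the 4 unbound libraries, 2 of the 49 proteasome genes tested had 1 library far from the other 3, by Dixon's test at the 95% level. Chance alone would give such a gap for about 1 in 20 genes. Psmd13, a lid subunit, was low in unbound replicate 2 at 12.5 CPM, where the nearest library had 14.6 CPM. Psmd9, a chaperone of the base, was high in unbound replicate 1 at 15 CPM, where the nearest library had 10.9 CPM, and without that library its difference between bound and unbound libraries was larger (log2 0.58, against 0.43 with all libraries).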

How the results depend on the processing

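Of the 36 proteasome genes that rose or fell, 26 stayed past the threshold in the same direction in all 15 settings tried besides a test against a 1.5-fold minimum. With that minimum, added after the data were seen, 18 rose and 1 fell (3246 and 3608 over all genes, 16.6% and 18.4%). With library totals, the median of all genes moved to 0.43, 9285 genes passed as higher and 3704 as lower (71.5% of calls higher, against 50.3% with TMM), the core and cap medians were 1.29 and 0.70 (0.87 and 0.28 above the median of all genes), Psmd1 turned to 0.24, 45 proteasome genes rose and 1, Psme4, fell. With the length trend taken out, 61.5% of calls over all genes were higher, and the core and cap medians were 0.74 and 0.39, their difference 0.36. In that setting Psmd1 turned to 0.23, where the median of all genes moved to 0.17. The count of genes that fell was also 1 with no filter, without mitochondria-encoded genes and Gm42418 and with the UBS libraries alone. Leaving out each library in turn gave 29 to 35 genes that rose and 1 or 2 that fell, core medians from 0.83 to 0.89, cap medians from 0.21 to 0.36 and their difference from 0.48 to 0.64, with 5598 to 6071 genes higher and 5263 to 6034 lower over all genes. Between the unbound series, 44 genes differed, 22 with library totals, 301 with DESeq2 (1 of them a proteasome gene), 104 with no filter and 16 to 7389 with 1 library left out (0 to 17 proteasome genes, median -0.10 to -0.06); the cause was not tested. No paired analysis was possible because the labels give the groups no shared replicate numbers.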
